A study of Mus musculus with 4 samples.

Results

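Actin assembly and remodelling genes were followed in 4 RNA-seq libraries from C57BL/6NJ mice. The labels name the source as primary T-helper 2 (Th2) cells and number the libraries 1 to 4 as biological replicates, all in 1 group. The genes were chosen by name and not by level. They were Actb, Actg1, Was, Wasf2, Wipf1, Lcp1, Capg, Msn, Ezr and Dstn, and every symbol made of Arpc, Actr, Coro, Tmsb, Cfl or Pfn and a digit. The Capz genes, whose symbols have a letter after the stem, were kept. This gave 50 genes of the 50600 in the tables, or 46 without the Capz genes. Each was read together with the genes annotated on the opposite DNA strand. With 1 group there was no untreated or other cell type to compare with, so genes were compared within libraries and libraries with each other. No treatment is labelled, the headers of the files place the samples at 0 hours of a course of Th1 and Th2 cells, and age and sex were not given. The samples share 1 donor identifier, and whether they came from separate mice is not stated, so p-values measure the spread between these 4 samples, which may be technical. Levels are given in TPM, the count divided by exon length and scaled to the same sum in each library. On the strand that the authors counted, 8 of 8 T cell markers had a mean of 1 TPM or more. Of 6 Th2 markers 3 reached that level, and Il5 and Il13 had no count. Among the T cell and Th2 markers at that level, the exons of Cd3e, Cd247, Gata3 and Ptgdr2 overlap a gene on the other strand. Of markers of other cells, 2 of 4 for macrophages, 2 of 4 for cytotoxic cells and 0 of 3 for platelets reached 1 TPM. Cd79a, a B cell gene, was at 39.0 TPM, and Ms4a1, another, had no count. Summed per library they came to 101 to 123 TPM for macrophages, nearly all Csf1r, and 0.47 to 6.63 TPM for cytotoxic cells. The exons of Csf1r overlap a gene on the other strand. The macrophage genes Lyz2 and Adgre1 had no count.

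Actin is a globular protein that polymerises into filaments. In T cells, filament growth and turnover drive migration and build the contact zone with an antigen-presenting cell. The Arp2/3 complex starts new filaments as branches once WASP or WAVE proteins activate it. Profilin and thymosins bind actin monomers, capping proteins close filament ends, and cofilin takes filaments apart. Coronins regulate both branching and disassembly, plastins bundle filaments, and ezrin and moesin tie them to the plasma membrane.

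The libraries held 2131288, 2351916, 1923157 and 1452053 counts in replicates 1, 2, 3 and 4. A count is a fragment that the authors' strand setting assigned to a gene, and 3 counts, the most that a gene counted 0 times allows, came to 1.28 to 2.07 CPM (a count relative to the total of its library), for counting error only. The actin genes took 0.171%, 0.247%, 0.197% and 0.172% of the counts in that order. The 14 genes that share exon bases with them on the opposite strand took 0.329%, 0.282%, 0.377% and 0.347%. In every library more fragments were therefore assigned to the opposite-strand genes than to all 50 actin genes together. Because the library kit is not given in the sources used here, and at 9 of the 14 opposite-strand genes the count exceeded that of the actin gene, the values below were not read as amounts of mRNA. Whether the strand setting matches the kit is not known and was not tested. A gene's count may therefore hold fragments of its own strand or of the opposite one. At the Arpc5l locus, for example, Wdr38 had 21127 counts in sum, while Rpl35, a ribosomal protein gene on the other strand, had 260. Protein-coding genes without an opposite-strand exon overlap held only 8.63% to 10.6% of the counts of a library. Every level, detection, count of 0 and direction of a ratio below holds for the strand as the authors counted it. Values with the strands turned cannot be computed from the tables. In bulk RNA, fewer cells of a type and less RNA per cell cannot be told apart.

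Most of these genes were detected on the strand as counted. Detection meant a mean of at least 1 TPM. It was reached by 35 of the 50 genes, against 34.0% of the 21764 protein-coding genes. Another 7 had counts below that level and 8 had no count in any library, whereas 44.6% of protein-coding genes had none. The median level was 4.53 TPM for the 50 genes and 0.144 TPM for all protein-coding genes. Counts were uneven, since Tmsb10, Tmsb4x and Actb held 43.5% of the 15751 fragments on these genes and the 10 genes with most counts held 78.5%.

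**Figure D1:**
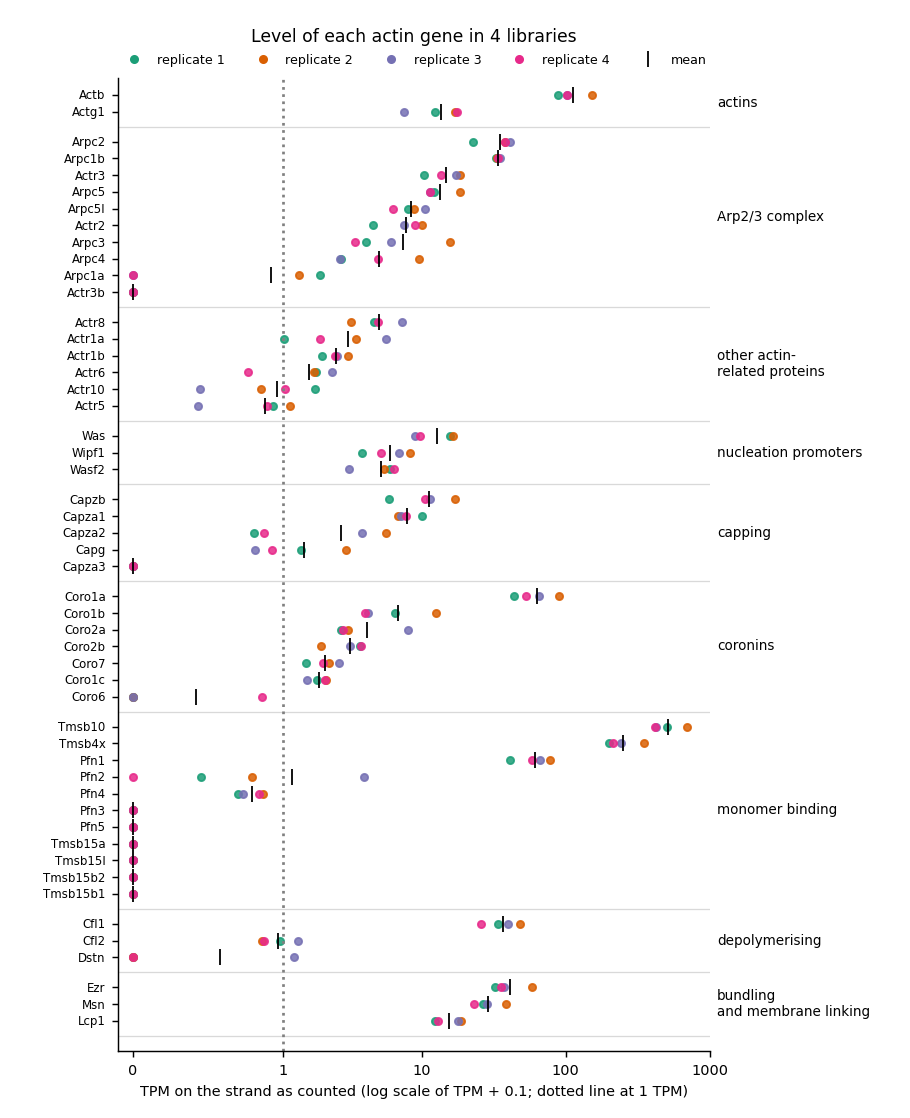
Level of each of the 50 actin genes in each library, in TPM on a log scale after adding 0.1, grouped by role. Coloured points are the 4 libraries, black ticks the means, and the dotted line 1 TPM. Tmsb10 and Tmsb4x lie highest, and the 8 genes with no count stand at 0.

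The 2 cytoplasmic actins were both present, at different levels. Actb, the beta-actin gene on chromosome 5 (chr5:142903115-142906754, minus strand, mm10), had 343, 610, 357 and 263 counts in replicates 1, 2, 3 and 4. Its level was 112 ± 28.4 TPM (SD, n = 4). Actg1, the gamma-actin gene, had 47, 67, 26 and 45 counts and a level of 13.6 ± 4.72 TPM. Actb was thus above Actg1 in every library, by 7.24, 9.03, 13.6 and 5.80 times in TPM. Neither shares exon bases with an opposite-strand gene. The muscle actins Acta1, Actc1 and Actg2 had no count, and Acta2, the smooth muscle actin, was at 1.66 TPM. Tagln, another smooth muscle marker, was at 147 TPM, and its exons overlap a gene on the other strand. The 6 muscle markers together ranged from 140 to 159 TPM per library, nearly all of it Tagln, and their part in the actin values was not tested.

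Among the monomer-binding proteins, 2 thymosins and 1 profilin carried the counts. Tmsb10 (thymosin beta 10, chr6:72957347-72958748, minus strand, mm10) was the highest of the 50 genes, with 924, 1327, 704 and 512 counts in replicates 1, 2, 3 and 4 and 511 ± 132 TPM (SD, n = 4). It ranked 65th of all protein-coding genes by mean TPM. Tmsb4x, which encodes thymosin beta 4, an abundant sequesterer of actin monomers, had 393, 709, 435 and 280 counts and 251 ± 67.3 TPM. The TPM values of both thymosins did not overlap, and Tmsb10 was 2.53, 2.01, 1.74 and 1.96 times as high as Tmsb4x in the 4 libraries. Pfn1, profilin 1, which loads monomers onto growing ends, had 142, 278, 210 and 135 counts and 61.1 ± 15.5 TPM. The other 8 genes of this group were low. Pfn2 was at 1.17 ± 1.84 TPM, with 18 of its 22 counts in replicate 3, and Pfn4 was at 0.57 ± 0.13 TPM. Pfn3, Pfn5, Tmsb15a, Tmsb15b1, Tmsb15b2 and Tmsb15l had no count. The last 3 share exon bases on the same strand, which the counting may leave unassigned.

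In the Arp2/3 complex 8 of 10 genes were detected. Arpc2, part of the core that holds the complex together, was highest with 66, 115, 109 and 74 counts in replicates 1, 2, 3 and 4 and 34.9 ± 8.35 TPM. Arpc1b followed with 241, 252, 235 and 166 counts and 33.8 ± 1.06 TPM, and the values of both overlapped. Actr3 and Actr2, which encode the actin-like subunits Arp3 and Arp2, stood at 14.9 ± 3.63 and 7.79 ± 2.41 TPM, with Actr3 higher in 4 of 4 libraries. Arpc5 was at 13.4 ± 3.34 TPM and its paralog Arpc5l at 8.43 ± 1.78 TPM, Arpc3 at 7.35 ± 5.78 TPM and Arpc4 at 4.96 ± 3.25 TPM. The alternative subunits at the bottom were Arpc1a, with 7, 5, 0 and 0 counts, and Actr3b, with none. Arpc4 shares 283 exon bases with Ttll3 on the same strand, and Arpc5l shares 62 with Wdr38, a gene with 21127 counts, so fragments there could not be assigned to one gene.

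Promoter sequences from RefSeq (GRCm38.p6, the mm10 assembly, 250 bases before to 50 after each start) matched 42 of the 50 genes. They were searched on both strands for 3 motifs, and are shown here for the Arp2/3 genes because those repeat 1 motif. CCGGAAGT, the consensus core bound by ETS factors, was in the promoters of 5 of 8 Arp2/3 genes, in 7 of all 42 (16.7%), and in 4.31% of 27025 genes. The 27025 were all genes with a promoter sequence, with no limit to protein-coding genes. In the windows below, 5′ to 3′ on the gene's strand, capitals mark the motif in either orientation. Their start lay 8 bases after (Actr2), 8 before (Actr3), 26 before (Arpc1a), 11 before (Arpc3) and 12 before (Arpc4) the annotated transcription start.
Actr2: gccgggcggggACTTCCGGtttgggcggag
Actr3: cccacccggaaCCGGAAGTgggagcgatcg
Arpc1a: gcgctccggtcACTTCCGGgatctgtcagc
Arpc3: ggagcaagtcaCCGGAAGTgcgtttattcc
Arpc4: gatggtccagcCCGGAAGTgctgtcggaga
The other genes with it were Actr6 and Coro1c. The CArG box, the element of serum response factor known from actin genes, was in 2 of 42 (4.76%), Actg1 and Arpc4, and in 1.81% of all genes. TATAAA was in 1 of 42 (2.38%), the uncounted Tmsb15a, and in 15.7% of all genes. The Actg1 window is given with its CArG box in capitals. Actb was not in the promoter table.
Actg1: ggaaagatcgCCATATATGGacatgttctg
The ETS letters were in Arpc1a, with 12 counts in sum, and in Actr3, with 359.

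Other actin-related proteins, which act outside filament branching, were low. Of these 6 genes 4 were detected, and the range was 0.72 TPM for Actr5 to 4.98 TPM for Actr8. Both encode parts of chromatin remodelling complexes. Actr1a, the filament-forming subunit of dynactin, was at 2.99 ± 2.00 TPM (SD, n = 4).

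All 3 genes grouped as promoters of branching were detected, Was and Wasf2 for activators and Wipf1 for a partner of WASP. Was, the X-linked gene for the WASP protein of blood cells, had 54, 58, 28 and 22 counts in replicates 1, 2, 3 and 4 and 12.7 ± 3.92 TPM. Wipf1, whose product binds and stabilises WASP, had 32, 72, 53 and 29 counts and 6.00 ± 1.95 TPM. Wasf2, the WAVE2 gene, had 54, 50, 25 and 38 counts and 5.20 ± 1.48 TPM. The ranges of Wipf1 and Wasf2 overlapped, while each value of Was lay above each of theirs. Each of these genes has an opposite-strand gene within an intron, with 50 summed counts at Gm22083 (Was), 17 at Gm13708 (Wipf1) and 11 at Gm24636 (Wasf2).

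Of the capping genes, Capzb, which encodes the beta subunit of the barbed-end capping protein, was highest at 11.2 ± 4.53 TPM (SD, n = 4). The alpha subunits Capza1 and Capza2 were at 7.88 ± 1.43 and 2.67 ± 2.45 TPM. Capza2 had 5, 49, 29 and 4 counts, so replicates 2 and 3 held most of it. Capg, a gelsolin-family capper, was at 1.43 ± 1.05 TPM, and Capza3, the form of sperm cells, had no count.

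Among coronins, Coro1a led by a wide margin. Coro1a, the form of blood cells (chr7:126699773-126707787, minus strand, mm10), had 174, 373, 239 and 142 counts in replicates 1, 2, 3 and 4 and 63.2 ± 20.2 TPM. Its lowest library, at 43.5 TPM, lay above the highest value of any other coronin, 12.5 TPM for Coro1b. Coro1b itself was at 6.78 ± 3.97 TPM, and Coro2a, Coro2b, Coro7 and Coro1c at 4.10, 3.10, 2.06 and 1.86 TPM. Coro6 had 2 counts, both in replicate 4.

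In the depolymerising group only Cfl1 reached a mean of 1 TPM. This gene for the non-muscle cofilin had 115, 169, 122 and 58 counts in replicates 1, 2, 3 and 4 and 36.9 ± 9.53 TPM. Cfl2, the muscle form, had 4, 3, 5 and 2 counts, and Dstn, destrin, had 3, all in replicate 3. Cfl1 was 35.9, 70.4, 30.5 and 36.2 times as high as Cfl2 in TPM.

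All 3 bundling and membrane-linking genes were detected. Ezr (ezrin) had 153, 284, 160 and 112 counts in replicates 1, 2, 3 and 4 and 40.8 ± 11.7 TPM. Msn (moesin) had 243, 361, 234 and 140 counts and 29.1 ± 6.56 TPM. Ezr was 1.21, 1.51, 1.31 and 1.54 times as high as Msn. Lcp1, L-plastin, the filament bundler of white blood cells, had 168, 265, 223 and 118 counts and 15.5 ± 3.35 TPM. Counts of Actb, the thymosins, Pfn1 and Cfl1 are uncertain to the extent that fragments also match their processed copies elsewhere, which the tables cannot show.

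A list of 50 other actin regulators gave the wider pathway. Of these 48 were detected, none was without counts, and the median was 9.76 TPM, against the 35 of 50 and 4.53 TPM above. The list was drawn up gene by gene with earlier results of these data known, while the actin genes came from a name rule. The difference between the lists is therefore not a result about the pathway. Cap1, which recycles actin monomers, was highest at 113 ± 9.38 TPM (SD, n = 4). Arhgdib was at 74.7 ± 12.0 TPM, Vcl (vinculin) at 54.1 ± 8.31 TPM and Arhgef1 at 44.4 ± 12.7 TPM. Of these 4 genes Arhgef1 alone has no opposite-strand exon overlap. Limk1, a kinase of cofilin, and Wasl, the relative of WASP in other tissues, were below threshold at 0.75 and 0.92 TPM. The 15 regulators with such an overlap had a median of 21.3 TPM and the 35 without it 8.27 TPM.

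**Figure D2:**
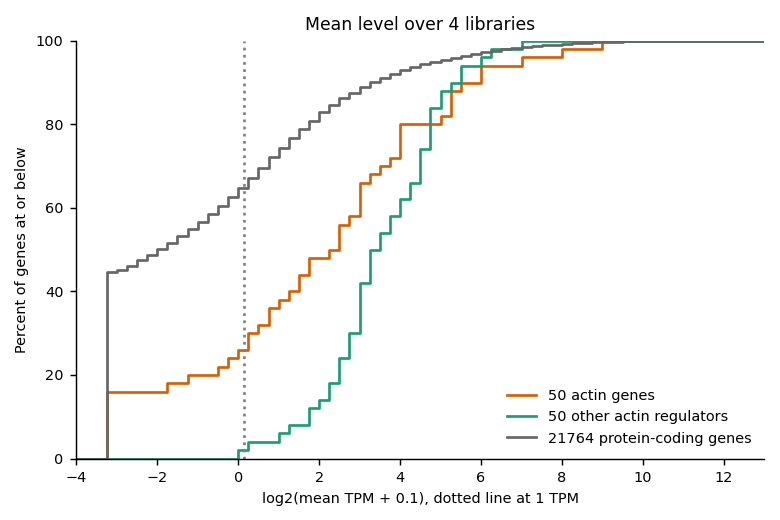
Cumulative percent of genes at or below each mean level over the 4 libraries, on a log2 scale after adding 0.1 TPM, for the 50 actin genes, 50 other actin regulators and 21764 protein-coding genes. Medians are 4.53, 9.76 and 0.144 TPM, and the step at the left of the actin and protein-coding curves is genes with no count.

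By position, 13 of the 50 genes share exon bases with an opposite-strand gene, 5 have one in an intron only, 16 have one within 5 kb and 16 have none within 5 kb. The 13 genes shared exon bases with 14 opposite-strand genes, 9 of them protein-coding, and Lcp1 had 2. In all, the 13 genes had 4974 counts and the 14 opposite-strand genes 25946. Count density, the counts per exon length, was compared within each pair with edgeR's quasi-likelihood test with library as a term, over all 3589 such pairs of the tables. Of all pairs, 59.5% had the lower density at the tested gene and 29.1% the higher, at a Benjamini-Hochberg adjusted p of 0.05. A pair of protein-coding genes could enter once from each gene, so these are not shares of distinct pairs. Of 12 actin gene pairs with enough counts, 8 were lower, 2 higher and 2 not called, a share near that of all pairs. The median log2 ratio was -2.02 for the actin pairs and -2.47 for all pairs. Capza3 and its partner Plcz1 both had no count and were not tested.

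The widest gap was at Coro1c, a widely expressed coronin. It had 25, 30, 19 and 19 counts in replicates 1, 2, 3 and 4, against 1032, 894, 835 and 597 for Gm17122, an antisense gene of 372 exon bases that all lie within Coro1c exons. The log2 density ratio was -9.86 ± 0.34 (SE; adjusted p = 4.26e-14 by edgeR's quasi-likelihood test), and every library had the same direction. Coro2a had 25, 29, 67 and 17 counts, against 506, 351, 733 and 426 for Gm16731, a non-coding transcript, with a log2 ratio of -6.77 ± 0.34 (adjusted p = 5.91e-12, edgeR). Both genes of this pair were highest in replicate 3. The stretch below is where a Gm16731 exon runs across Coro2a coding bases, chr4:46539119-46539267, plus strand, mm10. It is shown because fragments here differ only in strand, and capitals mark the bases that code for Coro2a on the other strand.
Gm16731: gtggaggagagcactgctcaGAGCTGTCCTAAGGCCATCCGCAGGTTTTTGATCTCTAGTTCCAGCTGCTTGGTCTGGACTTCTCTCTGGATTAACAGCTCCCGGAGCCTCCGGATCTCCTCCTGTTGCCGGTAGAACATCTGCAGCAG

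At Coro1a the overlap is the 26 bases at the ends of both genes. Coro1a had 174, 373, 239 and 142 counts in replicates 1, 2, 3 and 4, against 1058, 1308, 1283 and 825 for Bola2, a gene for an iron-sulphur cluster protein. The log2 density ratio was -1.67 ± 0.15 (SE; adjusted p = 2.17e-08, edgeR's quasi-likelihood test). The shared end, chr7:126699773-126699798 on the minus strand of mm10, is printed in the direction of Coro1a. Capitals mark AATAAA, the poly(A) signal letters, as they read on the Coro1a strand and, as TTTATT, on the Bola2 strand.
Coro1a: AATAAAacggcTTTATTttctggtac

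Head-to-head pairs of protein-coding genes gave further low ratios. Capza1 had 54, 38, 35 and 28 counts in replicates 1, 2, 3 and 4, against 959, 823, 969 and 681 for St7l, with a log2 ratio of -2.93 ± 0.26 (SE). Arpc1a had 7, 5, 0 and 0 counts, against 297, 246, 218 and 202 for Kpna7, a gene for a nuclear import factor. The log2 ratio of this pair was -6.08 ± 0.52, and -6.75 to -5.70 with any 1 replicate left out. For Arpc5l and Rpl35, a ribosomal protein gene, the counts were 52, 59, 62 and 27, against 58, 71, 70 and 61, with a log2 ratio of -2.28 ± 0.33. The pair of Coro7 and Dnaja3 had 16, 24, 25 and 14 counts, against 235, 265, 216 and 226, with a log2 ratio of -4.51 ± 0.33. Each of these 4 ratios passed the test, with adjusted p from 8.32e-10 to 6.35e-06 (edgeR), and held in 4 of 4 libraries. Coro7 also has Vasn in an intron on the other strand, with 1529, 1550, 1506 and 1059 counts.

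Msn was lower than Gm24718, a small Cajal body RNA gene of 136 bases within it, by density but not by count. Msn had 243, 361, 234 and 140 counts in replicates 1, 2, 3 and 4, against 18, 20, 18 and 13. The log2 density ratio was -1.76 ± 0.31 (SE; adjusted p = 4.66e-05, edgeR). The 2 densities rest on exon lengths that differ widely, and most exon bases of Msn lie outside the shared 136.

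Lcp1 gave a call that depends on which partner is used. Its largest exon overlap is with Gm15628, which had no count in any library, so the density of Lcp1 was at least 14.8-fold higher, taking 3 counts over the group for Gm15628 (adjusted p = 1.06e-05, edgeR's quasi-likelihood test). The other partner, Gm15629, had 2544, 2308, 2573 and 1782 counts in replicates 1, 2, 3 and 4, against the 168, 265, 223 and 118 of Lcp1. Against Gm15629 the log2 density ratio was -7.93, a comparison chosen after the counts had been seen. Gm15629 was 238 times as dense as Lcp1. The 219 shared bases, chr14:75197900-75198118 on the minus strand of mm10, are shown because the counting assigned most fragments of this locus to Gm15629. With the kit's orientation unknown, the strand they came from is not known either. They read 5′ to 3′ along Gm15629, and capitals mark bases that code for Lcp1 on the other strand.
Gm15629: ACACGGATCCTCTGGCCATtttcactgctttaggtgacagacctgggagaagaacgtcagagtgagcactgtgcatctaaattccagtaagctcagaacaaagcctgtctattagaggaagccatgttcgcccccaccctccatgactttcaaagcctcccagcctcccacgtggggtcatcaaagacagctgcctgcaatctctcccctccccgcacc

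The remaining pairs did not run that way. Ezr had 153, 284, 160 and 112 counts in replicates 1, 2, 3 and 4, against 9, 7, 1 and 15 for Sytl3, with which it shares 2 exon bases. Its log2 ratio was 4.83 ± 0.47 (SE, adjusted p = 4.14e-08, edgeR), and 4.43 to 5.52 with any 1 replicate left out. Arpc1b and Pdap1 share 931 exon bases at their ends. Arpc1b had 241, 252, 235 and 166 counts, against 305, 326, 336 and 217, and a log2 ratio of -0.37 ± 0.23 (adjusted p = 0.144, edgeR). This ratio was not called, although Arpc1b was the lower in 4 of 4 libraries. Pfn4 had 3, 5, 3 and 3 counts, against 0, 5, 4 and 0 for Fam228b, which is too few to order them (adjusted p = 0.637, edgeR).

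**Figure D3:**
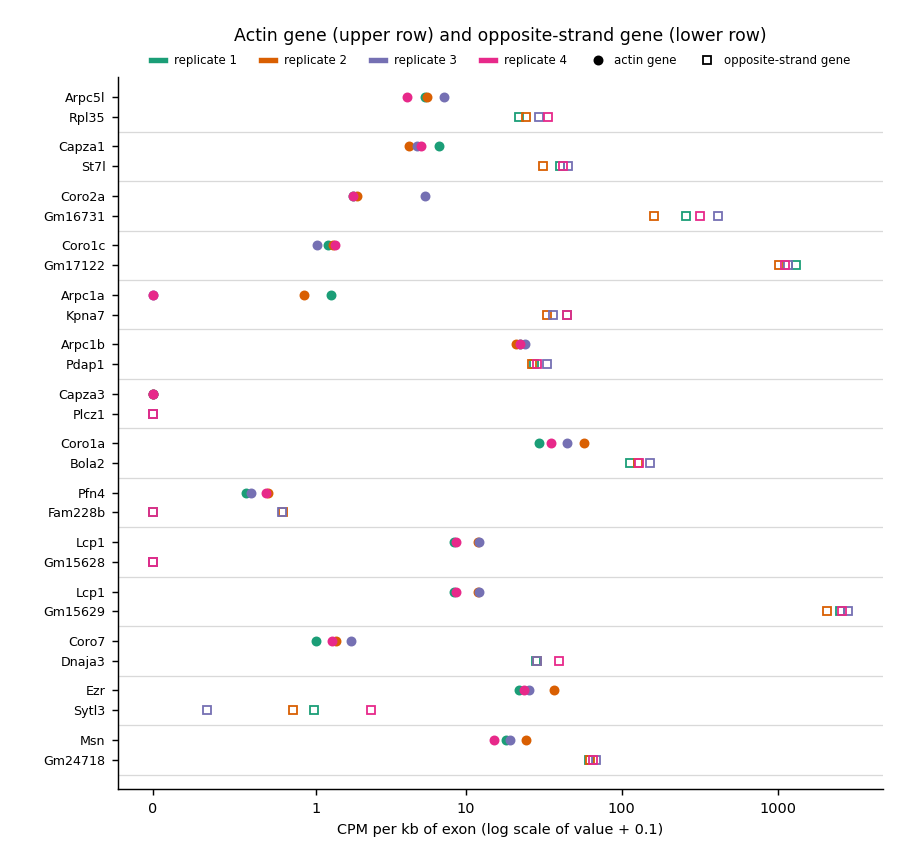
CPM per kb of exon for each actin gene (filled circles, upper row) and its opposite-strand gene (open squares, lower row), with 1 point per library on a log scale after adding 0.1. The squares lie to the right of the circles for Coro1c, Coro2a and the Lcp1 partner Gm15629, and to the left for Ezr.

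Over the libraries, replicate 2 stood above the others for many of the actin genes. Of 34 actin genes with at least 20 counts, 18 had their highest CPM there, against 32.7% of 7474 protein-coding genes with as many counts. Among genes without an opposite-strand exon overlap it was 15 of 24, against 39.0% of 4586. These counts were made after the values had been seen. Replicate 2 also had the largest share of counts in the ribosomal RNA locus, 16.8%, where the others ranged from 3.47% to 12.6%. Protein-coding genes without an opposite-strand exon overlap held 10.6% of its counts and 8.63% to 9.94% of the others. Summed T cell markers were highest there too, at 518 TPM, where the others ranged from 379 to 490 TPM. The highest of these markers, Cd247 at a mean of 174 TPM, has an opposite-strand exon overlap. Its own count was highest in replicate 3, with 1504 against 1368 in replicate 2. The part of these shares in the actin values was not tested.

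No actin gene was called more variable than genes of like abundance, which with 4 libraries does not show that none was. Spread was tested with edgeR's quasi-likelihood dispersion on counts scaled by TMM, an edgeR factor for library composition, over 5755 genes that passed the edgeR filter on low counts, which also leaves out genes near 0 in any library. Of these 0.278% were called. None of the 28 actin genes that passed was called, and 6 had an unadjusted p below 0.05, as had 285 of all genes (4.95%). The 6 were Tmsb10, Arpc3, Tmsb4x, Coro1a, Actb and Coro1b, all highest in replicate 2. Arpc3, a subunit of Arp2/3, had 16, 65, 22 and 9 counts in replicates 1, 2, 3 and 4, and its TMM-scaled CPM in replicate 2 was 3.84 times the median of the others. The same ratio was 1.59 for Tmsb10, 1.55 for Tmsb4x, 1.61 for Coro1a, 1.56 for Actb and 2.99 for Coro1b. Their adjusted p ranged from 0.475 to 0.987 (edgeR).

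**Figure D4:**
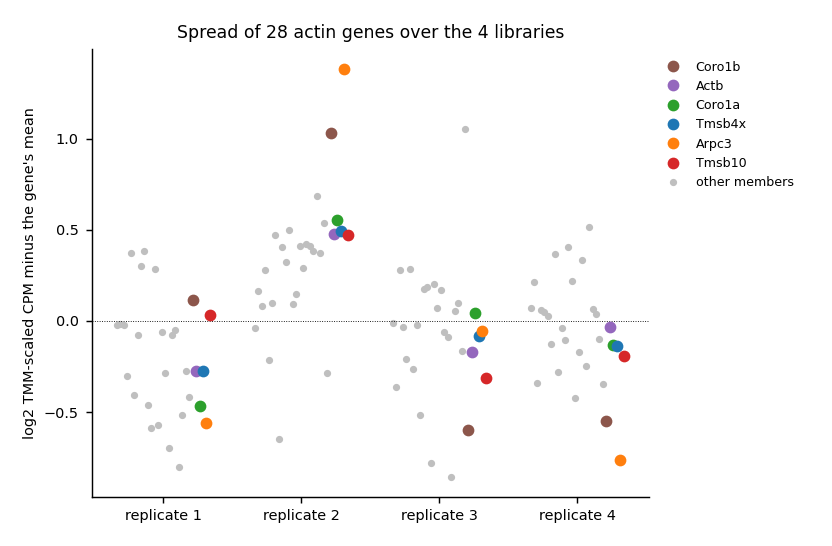
TMM-scaled CPM on a log2 scale minus the mean of each gene, for the 28 actin genes that passed the filter, with 1 point per gene and library. The 6 genes with an unadjusted p below 0.05 are coloured and lie above 0 in replicate 2.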

How the data were processed

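RNA-seq was deposited for 4 samples of 1 group. The authors deposited raw counts of fragments per gene, not normalised. Per the file headers, they were made with featureCounts 1.4.6-p4 on STAR alignments to mm10, over exons of GENCODE mouse release 13, with strand setting 1 and both ends required. The deposited exon lengths, another column of the authors, were used for TPM, computed here. Symbols matched 50376 of 50600 identifiers.

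Totals were 1452053 to 2351916 counts, and 3 counts came to 1.28 to 2.07 CPM. Intervals and limits cover counting error only. A chi-square comparison of counts gave 6.29 to 24.8 per degree of freedom over pairs of libraries, so none was a copy. Pairs of overlapping genes needed 20 counts in sum, and the opposite gene with the largest overlap was taken. Tests used edgeR 4.0.16 with limma 3.58.1 and DESeq2 1.42.0 as alternatives, in R 4.3.3, with an adjusted p of 0.05. Python 3.11.15 and pandas 2.3.3 did the rest. Alternatives changed the tool, the count minimum, the overlap, the library term, the scaling and the libraries used.

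Values per library were given for Actb, Actg1, Cfl1, Pfn1, Coro1a, Tmsb4x, Tmsb10, Lcp1, Was, Wipf1 and Msn. Other genes were named as highest or lowest of their role, as a tested pair, or as regulators of highest level. The rest were chosen after their values were seen. The genes and lists were chosen with earlier results of these data known. Protein sequences were not used here. Some items are not reported here.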

Additional observations from a re-analysis of the deposited data

Results flagged for a closer look

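Within the 4 libraries, 1 library stood far from the other 3 for 4 of 45 genes, the actin genes and opposite-strand genes with at least 20 counts. For normally distributed values chance alone gives about 1 in 20, which need not hold for small counts. The share over all genes was not computed, so 4 of 45 is not a result about these genes. Arpc5 had 26.4 CPM in replicate 2, above the other libraries. Coro2a had 34.8 CPM in replicate 3, where its opposite-strand gene Gm16731 was also highest. Pfn2, with 22 counts in all, had 9.36 CPM in replicate 3. Dnaja3, the partner of Coro7, had 156 CPM in replicate 4, the library with the fewest counts.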

How the results depend on the processing

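The pair calls (8 lower, 2 higher) were the same in number with limma, DESeq2, no minimum count, no library term and each replicate left out (8 and 2 in each). With at least 100 shared exon bases 5 were lower and 1 higher, because fewer pairs qualify. With the opposite gene of most counts, an alternative added after the data were seen, 1 was higher, and the log2 ratio of Lcp1 turned to -7.93. Without any 1 replicate the members detected ranged from 34 to 36 and their share of counts from 0.180% to 0.206%. Under the other thresholds for detection 31 to 40 genes were detected, and 32 without the Capz genes. No actin gene was called for spread under any setting run; those with an unadjusted p below 0.05 numbered 5 with RLE factors, 3 without the filter, 4, 1, 5 and 7 without replicates 1, 2, 3 and 4. Without replicate 2, the 6 above thus became 1. The library term pairs the genes within each library; with 1 group there are no samples to pair across groups.

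Depth limits the low genes. With 1452053 to 2351916 counts per library, 16 of the 50 genes had under 20 counts in sum, and 0 counts in a library allow a level of up to 1.28 to 2.07 CPM.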
